A study of Mus musculus with 23 samples.

Results

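Gene expression of adult mouse mammary basal cells was compared with that of luminal progenitors, with 2 RNA-seq libraries for each population. These 4 libraries were taken by their sample titles from the 23 libraries of the series. Basal cells and luminal progenitors were sorted from mammary glands of adult WT mice of the C57BL6J strain, and the labels name no allele, transgene or treatment for them. Mature luminal cells of the same strain and age and fetal mammary stem cells (fMaSC, embryonic day 18), with 2 libraries each, stood in the same table and entered the same fit. In a separate table, basal SOX10 high cells were set against luminal SOX10 high cells of PY230 tumours, with 2 libraries each. PY230 is a mouse mammary tumour cell line that was transplanted into syngeneic mice, and the tumours were dissected and sorted. Each library was made from around 2000 cells with SmartSeq2, which amplifies full-length cDNA of polyA RNA. Libraries of 1 group are biological replicates by the design text, but no label ties one to an animal or pool of animals, so p-values measure the spread between these libraries. Which surface markers and gates were used to sort the cells is not given here.

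The mammary epithelium is a bilayer. Its outer basal layer contains myoepithelial cells, which contract in response to oxytocin to eject milk, rest on the basement membrane and hold the cells that rebuild a gland after transplantation. The inner layer holds mature luminal cells, which sense oestrogen, progesterone and prolactin, and luminal progenitors, which depend on the transcription factor Elf5 and give rise to the milk-producing alveolar cells of pregnancy.

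Values are RPKM, read numbers divided by gene length and by library size, and fold changes are differences of log2(RPKM + 1) between basal cells and luminal progenitors, given ± SE. Between 10152 and 10946 genes reached 1 RPKM in the 4 libraries. RPKM holds no read counts, so the depth is unknown, and the spread between libraries sets the precision. Each SE and p-value of the normal cells rests on a spread pooled over all 8 normal libraries. Basal libraries differed from each other more than luminal progenitor libraries did. Over the 12553 genes tested, the median absolute log2 difference was 0.47 between the 2 basal and 0.25 between the 2 luminal progenitor libraries, and 2442 genes (19.5%) against 447 genes (3.56%) differed by more than 2-fold.

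The defining markers stood where the labels put them. Krt5, the keratin of basal epithelia, had 65.9 and 29.97 RPKM in basal libraries, against 0.0531 and 0.508 RPKM in luminal progenitor libraries, and Trp63, the p63 factor required for stratified and basal epithelia, had 34.1 and 60.8 against 0 and 0.207 RPKM. Elf5 had 0.598 and 0.227 RPKM in basal libraries, against 10.98 and 8.64 RPKM in luminal progenitor libraries, and Kit, the stem cell factor receptor of luminal progenitors, had 0.0962 and 0.411 against 20.6 and 17.7 RPKM. Markers of mature luminal cells were well above 0 in both populations. The 23 hormone-sensing genes listed summed to 2818 and 1967 RPKM in basal libraries, against 2440 and 2185 RPKM in luminal progenitor libraries, and to 15510 and 15460 RPKM in mature luminal libraries. Prlr, the prolactin receptor, made up the largest part in basal cells, with 879.6 and 732 RPKM there, 664 and 483 RPKM in luminal progenitors and 4013 and 4291 RPKM in mature luminal cells. Whether these values are RNA of mature luminal cells or of the sorted cells themselves was not tested.

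Of 12553 genes, basal cells had 2641 higher and 1814 lower than luminal progenitors (limma, adjusted p under 0.05), which is 21% and 14.5% of the genes tested. Counts of list members below are to be read beside these shares. The median fold change over all genes was 0.08. The balance between the directions depended on scaling: 59.3% of the called genes were higher in basal cells, against 48.9% after quantile normalization (2242 higher, 2339 lower) and 51.7% with median-of-ratios factors (2334 higher, 2177 lower). In the fit to the 4 libraries alone, 915 genes were higher and 458 lower. The counts were 1500 and 1029 without luminal progenitor replicate 2, 1789 and 878 without luminal progenitor replicate 1, and 3335 and 2839 without basal replicate 1. Across 15 alternative settings, 838 of the higher and 410 of the lower genes were called in the same direction by every setting that tested them. Genes of this kind are said below to hold in all settings.

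**Figure D1:**
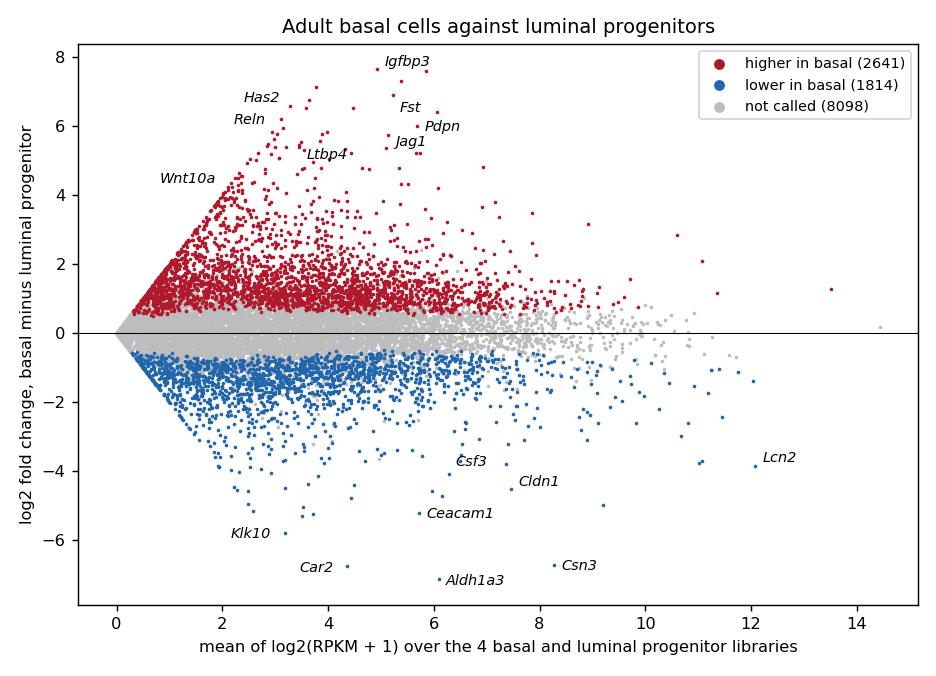
Log2 fold change (basal minus luminal progenitor, y axis) against the mean of log2(RPKM + 1) over the 4 libraries (x axis) for the 12553 genes tested. Red points are the 2641 genes higher and blue points the 1814 genes lower in basal cells, grey points were not called, and the named genes lie at the edges of the cloud.

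Several of the largest rises were those of secreted and surface proteins. Igfbp3, a binding protein that carries insulin-like growth factors, had 370.5 and 497 RPKM in basal libraries, against 1.42 and 0.940 RPKM in luminal progenitor libraries (7.63 ± 0.27, adjusted p = 3.54e-05). Fst, follistatin, which binds and neutralises activins, had 493 and 333 against 2.52 and 2.34 RPKM (6.89 ± 0.26, adjusted p = 3.54e-05). Neither gene reached 3 RPKM in a luminal progenitor library. Has2, a hyaluronan synthase, had 47.2 and 188 RPKM and Reln, the secreted glycoprotein reelin, 48.6 and 109 RPKM in basal libraries, and both were listed at 0 in both luminal progenitor libraries. Cxcl14, a chemokine gene (208 and 79.5 against 0 and 0.470 RPKM), Pappa (26.7 and 121 against 0.0463 and 0 RPKM), whose product is a protease that cleaves IGF-binding proteins, and Pdpn (401 and 423 against 5.29 and 5.54 RPKM), the membrane mucin podoplanin, were also among the 15 largest rises. Has2, Reln and Pappa were higher in basal replicate 2 than in replicate 1, and Cxcl14 was higher in replicate 1. The rule that chose these genes asked that the groups do not overlap. The other rises among the 15 were those of Krt14, Krt17, Postn, Lgr5, Moxd1, Medag, 1500015O10Rik and Mylk.

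The largest falls also reached beyond the milk genes. Car2, a carbonic anhydrase, had 0.540 and 1.51 RPKM in basal libraries, against 241 and 185 RPKM in luminal progenitor libraries (-6.76 ± 0.36, adjusted p = 5.65e-05). Klk10, a secreted kallikrein, had 0 and 0.495 against 66.3 and 67.3 RPKM, and Cck, which codes for the peptide hormone cholecystokinin, had 2.27 and 0 against 93.4 and 53.3 RPKM. Slc28a3, a nucleoside transporter, had 0 and 0.327 against 23.1 and 30.3 RPKM, and Fcgbp, a large mucus-associated protein, had 8.10 and 20.04 against 305 and 435 RPKM. Ceacam1, an adhesion molecule of the apical surface, had 8.64 and 6.89 against 279.7 and 366 RPKM (-5.20 ± 0.20, adjusted p = 3.54e-05). Mature luminal cells had low values of several of these, with 0.912 and 2.27 RPKM of Car2, 0.441 and 0 RPKM of Klk10 and 0.230 and 0.669 RPKM of Slc28a3. Ceacam1 and Ceacam2, and Bglap3 and the MHC gene H2-T9 with their own near copies, share sequence with relatives, so reads could have been split between copies. The other falls among the 15 were those of Aldh1a3, Csn3, Csn1s1, Cd14, Wfdc18 and Rhov. All 15 largest rises and all 15 largest falls held in all settings. They were chosen from the same libraries for the size of their change, so this is no separate support for them.

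Contractile proteins were higher in basal cells: of 19 tested members of the list, 15 were higher in basal cells, none was lower, and the median fold change was 2.61. Of the 15, 14 held in all settings, and 14 were called in the fit to the 4 libraries alone. Myh11, the smooth muscle myosin heavy chain, had 70.5 and 41.5 RPKM in basal libraries, against 0.0540 and 0.179 RPKM in luminal progenitor libraries (5.63 ± 0.28, adjusted p = 4.98e-05). Mylk, the kinase that activates this myosin, had 155 and 83.2 against 0.147 and 0.348 RPKM (6.53 ± 0.32, adjusted p = 4.65e-05), and its substrate Myl9 had 30.9 and 9.90 against 0.0522 and 0.458 RPKM (3.91 ± 0.47, adjusted p = 0.00123). All 3 stayed under 1 RPKM in luminal progenitor libraries, and for each the value of basal replicate 1 was above that of replicate 2. Acta2, smooth muscle actin, had 306 and 135 against 7.56 and 11.3 RPKM (4.32 ± 0.38, adjusted p = 0.000353), and the related Actg2, with which it could share reads, had 8.68 and 3.05 RPKM in basal libraries and was listed at 0 in both luminal progenitor libraries. Tropomyosins parted: Tpm2 had 251 and 176 against 5.93 and 7.68 RPKM (4.77 ± 0.23, adjusted p = 4.65e-05), while Tpm1 had 294 and 234 against 252 and 226 RPKM and was not called (adjusted p = 0.579). The other uncalled members were Vcl, vinculin, with 50.3 and 56.0 against 51.0 and 47.3 RPKM, and the LIM proteins Csrp1 (195 and 40.9 against 188 and 428 RPKM) and Pdlim3 (5.04 and 1.38 against 10.1 and 1.98 RPKM).

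The contractile genes also set the 2 basal libraries apart. Tagln, the actin-binding protein transgelin, had 729 and 128 RPKM and Cnn1, calponin, 131 and 26.2 RPKM in basal replicates 1 and 2, and the list summed to 2625 and 1359 RPKM there, against 617.4 and 831.8 RPKM in luminal progenitor libraries. Cald1, caldesmon, had 135 and 137 RPKM in the same basal libraries, so the gap was not shared by every member. Among 12 tested genes that control contraction, 6 were higher and 1 lower, and 1 of each direction held in all settings, with 3 higher when luminal progenitor replicate 2 was left out. Oxtr, the oxytocin receptor, had 29.1 and 5.89 against 0.775 and 0.490 RPKM (3.15 ± 0.60, adjusted p = 0.00693), a call that was lost without luminal progenitor replicate 2 and in the fit to the 4 libraries alone. Srf, the factor that binds CArG boxes, had 5.67 and 6.65 against 2.03 and 2.28 RPKM (1.18 ± 0.21, adjusted p = 0.0053), a call that was lost in the fit to the 4 libraries alone. P2rx4, an ATP-gated channel, was lower, with 6.79 and 6.55 against 24.9 and 25.9 RPKM (-1.78 ± 0.19, adjusted p = 0.000726).

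The CArG box is the motif through which Srf and its partners drive smooth muscle genes, and it was searched in RefSeq promoters (build GRCm38.p6, 250 bases before to 50 after each start, both strands, on which the motif reads the same). It was present in 2 of the 19 promoter windows of the 17 contractile genes matched by symbol, those of Myl9 and Vcl. Of all 32851 promoters, 535 held it (1.63%). The stretches are shown because one belongs to a gene that was higher in basal cells and the other to a gene that was not called. Capitals mark the CArG box, which begins 161 bases before the start of Myl9 (chr2:156775263-156775352, plus strand) and 227 bases before the start of Vcl (chr14:20929148-20929220, plus strand).
Myl9: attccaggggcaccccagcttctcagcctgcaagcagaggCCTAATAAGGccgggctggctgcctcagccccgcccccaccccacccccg
Vcl: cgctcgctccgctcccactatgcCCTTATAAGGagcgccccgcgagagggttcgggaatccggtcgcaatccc
A match describes the letters of this window, and for the other 15 genes it says only that these letters were not in it.

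Keratins changed in opposite directions by layer. Of 13 tested basal keratins and desmosomal proteins, 9 were higher and none lower (median 1.499), with 6 holding in all settings. Krt15, a basal keratin, had 134 and 119 against 1.91 and 2.40 RPKM (5.34 ± 0.22, adjusted p = 4.15e-05), and Krt5 rose by a similar size (5.17 ± 0.38, adjusted p = 0.000164). Of 7 tested luminal keratins, 5 were lower and 1 higher (median -2.29). Krt8 and Krt18, the paired keratins of simple epithelia, held in all settings. Krt8 had 762 and 437 against 3944 and 5328 RPKM (-2.99 ± 0.33, adjusted p = 0.000847) and Krt18 879 and 356 against 5914 and 9746 RPKM (-3.76 ± 0.47, adjusted p = 0.00144). Their basal levels were not low. In both basal libraries they lay above those of Krt5 and below those of Krt14 (1213 and 532 RPKM). The exception was Krt23, which was higher, with 21.5 and 15.6 against 2.86 and 1.15 RPKM (2.75 ± 0.32, adjusted p = 0.00111).

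Basement membrane genes rose together: 17 of 20 tested members were higher and none lower, with a median of 2.63, and 15 held in all settings. Col4a1, a chain of the collagen IV network, had 57.4 and 58.9 against 0.881 and 1.54 RPKM (4.76 ± 0.23, adjusted p = 4.86e-05), and its partner Col4a2 had 34.0 and 36.9 against 0.222 and 0.484 RPKM (4.76 ± 0.22, adjusted p = 4.23e-05). Both were nearly equal in the 2 basal libraries. Lamb1, a laminin chain, had 27.2 and 43.4 against 1.11 and 0.738 RPKM (4.21 ± 0.28), and Lamc1, the gamma chain of most laminins, had 332 and 483 against 59.7 and 64.1 RPKM (2.68 ± 0.24). Col17a1, the hemidesmosomal collagen that ties basal cells to laminin, had 11.7 and 47.9 against 0 and 0.151 RPKM (4.54 ± 0.55, adjusted p = 0.00131). The 3 members not called were Lama4, Nid2 and Lama5, the last with 359 and 274 against 234 and 249.96 RPKM and its highest values in mature luminal cells (515 and 637 RPKM).

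Integrins, the receptors of this matrix, were split: 7 of 14 tested were higher and 2 lower, and 4 and 1 of these held in all settings. Itga5, the fibronectin receptor subunit, had 20.02 and 13.5 against 1.25 and 0.872 RPKM (3.09 ± 0.27, adjusted p = 0.000353), and Itga3, a laminin receptor subunit, had 25.2 and 39.0 against 7.38 and 8.35 RPKM (1.87 ± 0.25, adjusted p = 0.00197). Itgb1 and Itga6 (CD29 and CD49f), which are widely used to sort basal cells, were higher by 1.23 ± 0.27 and 1.77 ± 0.40, and both calls were lost when either luminal progenitor library was left out and in the fit to the 4 libraries alone. Itgb6, an epithelial integrin subunit that activates TGF-beta, was lower, with 8.94 and 15.3 against 57.2 and 41.6 RPKM (-1.97 ± 0.31, adjusted p = 0.00355).

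Matrix and protease genes also rose. Of 20 tested matricellular and matrix genes, 13 were higher and none lower (median 2.13), with 9 holding in all settings, and of 20 tested proteases and inhibitors 12 were higher and 2 lower (median 2.32), with 9 and 2 holding and 5 lower when basal replicate 1 was left out. Ctgf, a growth factor-binding matrix protein, had 1034 and 411 against 30.02 and 16.2 RPKM (4.82 ± 0.50, adjusted p = 0.000655), and Eln, elastin, had 10.1 and 10.96 against 0 and 0.389 RPKM (3.29 ± 0.24). Thbs1, thrombospondin, was high in both, with 1378 and 1474 against 844 and 848 RPKM, and was not called, beside 21.8 and 49.4 RPKM in mature luminal cells. Mmp2, a collagenase of type IV, had 75.8 and 63.6 against 0.322 and 1.13 RPKM (5.39 ± 0.31, adjusted p = 7.7e-05). Mmp3 ran the other way, with 0 and 0.311 against 3.73 and 4.01 RPKM (-2.09 ± 0.28, adjusted p = 0.00181), as did Serpinb5, maspin, with 112 and 95.6 against 245 and 261 RPKM (-1.28 ± 0.18, adjusted p = 0.00236). Adam12 was called (adjusted p = 0.00916) although its basal values of 4.77 and 42.7 RPKM lay far apart, and the call was lost without either luminal progenitor library.

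**Figure D2:**
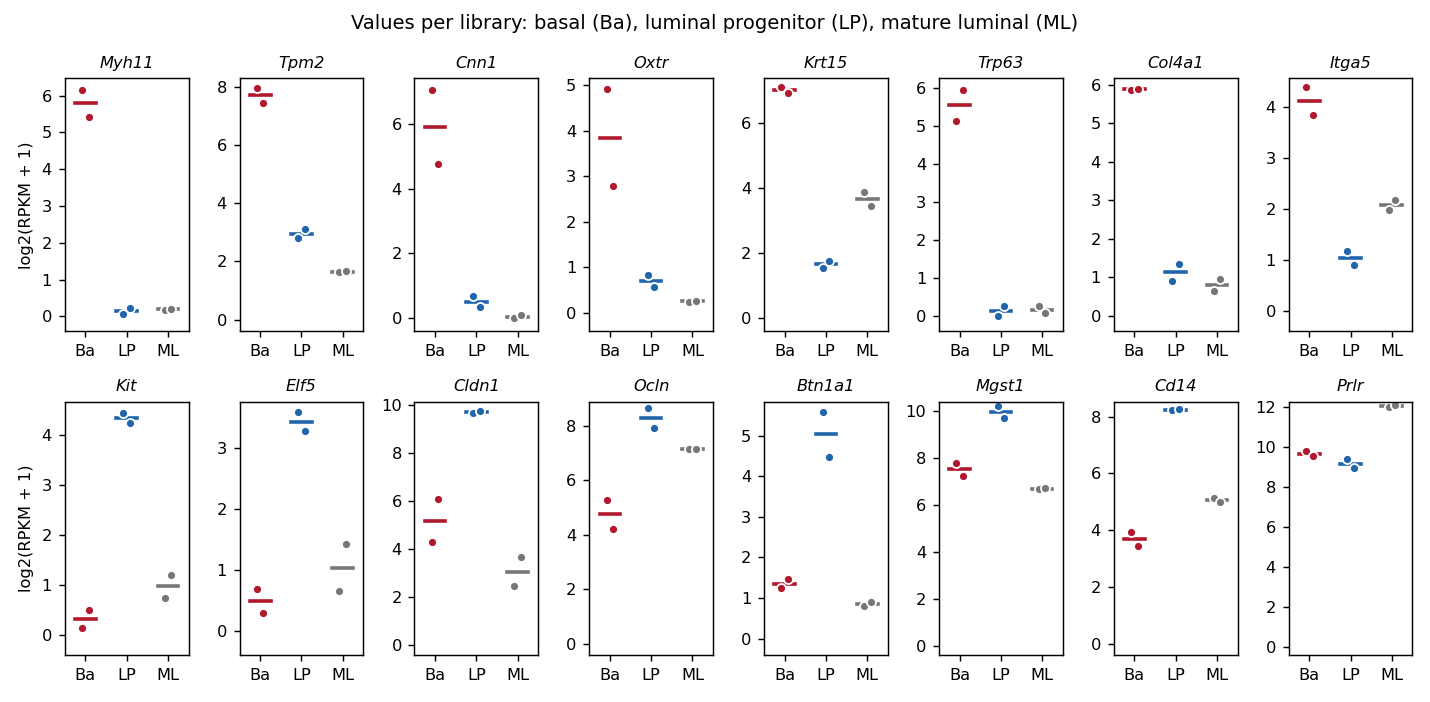
Log2(RPKM + 1) (y axis) of 16 genes in each library of basal cells (Ba), luminal progenitors (LP) and mature luminal cells (ML), with points for libraries and bars for group means. Basal libraries lie above the others in the upper row, with Cnn1 and Oxtr further apart between basal replicates than Tpm2 or Col4a1, while luminal progenitors are highest in the lower row except for Prlr.

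Among transcription factors, 9 of 14 tested members of the basal list were higher and none lower (median 1.47), and 5 held in all settings. Snai2 (Slug), a repressor tied to mammary stem cell activity, had 62.2 and 36.6 against 0.189 and 0 RPKM (5.48 ± 0.29, adjusted p = 5.73e-05). Id4, an inhibitor of helix-loop-helix factors in basal cells, had 34.4 and 65.2 against 0.472 and 0.425 RPKM (5.06 ± 0.31, adjusted p = 9.86e-05), and Irx4, an Iroquois homeobox factor, had 15.9 and 6.93 RPKM in basal libraries and was listed at 0 in both luminal progenitor libraries. Prrx1, a homeobox factor of mesenchyme, had 13.6 and 16.8 against 0.155 and 0 RPKM (3.91 ± 0.26). Vim, vimentin, was higher too, with 349.7 and 307 against 5.68 and 10.5 RPKM (5.23 ± 0.40, adjusted p = 0.000193). Among 15 tested mesenchymal transition genes 4, with Vim, were higher and 2 lower, of which 4 and 0 held. Of all genes tested 21% were higher and 14.5% lower.

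Factors usually named for luminal progenitors did not move as a block: of 27 tested, 8 were lower, 7 higher and 12 not called, and 2 and 1 of these held in all settings. Leaving out luminal progenitor replicate 1 gave 4 lower and 4 higher, and leaving out replicate 2 gave 5 lower and 3 higher. The lower ones that held were Elf5 (-2.94 ± 0.32, adjusted p = 0.000847) and its ETS relative Ehf, with 10.7 and 6.76 against 106 and 87.4 RPKM (-3.35 ± 0.26, adjusted p = 0.000193). Runx1, which luminal lists often include, was the higher one, with 141 and 179.7 against 32.2 and 31.0 RPKM (2.30 ± 0.18, adjusted p = 0.000221). Gata3, Sox9 and Stat5a were not called. Gata3, a luminal lineage factor, had 32.1 and 37.6 against 37.7 and 30.9 RPKM, and Sox9 had 242 and 168 against 301 and 231 RPKM.

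Wnt receptors and secreted Wnt antagonists were mostly higher in basal cells. Of 22 tested Wnt receptors and antagonists, 19 were higher in basal cells and none lower (median 1.63), with 9 holding in all settings, 9 called in the fit to the 4 libraries alone, 12 without luminal progenitor replicate 2 and 15 after a transcript length trend was removed. Lrp6, the Wnt co-receptor, had 199 and 419 against 35.3 and 40.4 RPKM (2.90 ± 0.35, adjusted p = 0.00123). Fzd1 and Fzd7, frizzled receptors, had 30.6 and 42.5 against 5.32 and 5.66 RPKM (2.51 ± 0.24) and 21.1 and 17.1 against 3.87 and 3.82 RPKM (2.04 ± 0.21), and Lgr4, a receptor for R-spondins, had 204 and 145 against 49.7 and 26.2 RPKM (2.22 ± 0.33). The antagonists rose with the receptors. Dkk3 had 28.5 and 16.1 RPKM in basal libraries and was listed at 0 in both luminal progenitor libraries, Sfrp1 had 16.5 and 16.4 against 1.53 and 1.27 RPKM (2.86 ± 0.21), and Wif1 5.04 and 5.93 against 0 and 0.0543 RPKM (2.66 ± 0.19).

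Of 10 tested members of the Wnt ligand list, 3 were higher, 2 lower and 5 not called. Of these calls 1 higher and 0 lower held in all settings. The shares over all genes tested were 21% higher and 14.5% lower. Wnt10a had 20.6 and 15.3 RPKM in basal libraries and was listed at 0 in luminal progenitor and mature luminal libraries (adjusted p = 5.65e-05). Wnt11 had 30.7 and 8.84 against 1.80 and 0.444 RPKM (3.13 ± 0.59, adjusted p = 0.00683). In the other direction, Wnt5b had 23.2 and 25.4 against 63.4 and 49.2 RPKM (-1.17 ± 0.26, adjusted p = 0.0133), and Rspo1, the secreted partner of Lgr receptors, had 0.468 and 0.675 against 3.25 and 11.1 RPKM (-2.19 ± 0.44, adjusted p = 0.00901). Of these 4 calls only that of Wnt10a held in all settings, and the other 3 were lost in the fit to the 4 libraries alone. The call of Wnt11 was also lost without luminal progenitor replicate 2 and that of Wnt5b without luminal progenitor replicate 1. Of 9 tested target genes, 6 were higher and 1 lower (median 1.70), and 4 and 0 of these held. With the filter raised to 5 RPKM in 2 libraries, 2 of 5 tested were higher and 1 lower (median -0.03). Nkd2, a feedback inhibitor, had 3.32 and 4.20 against 0.0761 and 0.500 RPKM (1.90 ± 0.23, adjusted p = 0.0012) and Procr, the protein C receptor, 15.4 and 21.1 against 1.65 and 1.92 RPKM (2.77 ± 0.33, adjusted p = 0.00122).

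Notch ligands were higher in basal cells. Of 8 tested receptors, ligands and Fringe enzymes, 5 were higher and none lower, and 3 held in all settings, the ligands Jag1, Jag2 and Dll1. Jag2 had 26.8 and 15.6 against 0 and 0.233 RPKM (4.27 ± 0.30, adjusted p = 0.000132). The receptor Notch2 had 28.2 and 21.2 against 10.2 and 6.53 RPKM (1.47 ± 0.27, adjusted p = 0.0062), a call lost in the fit to the 4 libraries alone and after removal of the length trend. Of 8 tested targets and transducers, 1 was higher and 3 were lower, and 1 and 0 of these held. Rbpj, the DNA-binding partner of the Notch receptors, had 58.1 and 59.8 against 20.7 and 13.1 RPKM (1.77 ± 0.24, adjusted p = 0.00191). The repressors Hes1 and Hey1, targets of Notch, were lower in basal cells. Hes1 had 38.8 and 19.9 against 53.1 and 59.4 RPKM (-0.99 ± 0.29, adjusted p = 0.0362) and Hey1 5.90 and 4.79 against 22.9 and 9.70 RPKM (-1.34 ± 0.37, adjusted p = 0.0286), and both calls were lost in at least 5 of the 15 settings, among them the fit to the 4 libraries alone.

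Growth factor systems were changed in part. In the EGF family, 5 of 15 tested members were higher and 2 lower, and 3 and 1 of these held. Nrg1, neuregulin, had 45.1 and 68.4 against 2.496 and 1.75 RPKM (4.19 ± 0.28, adjusted p = 0.000118) and Ereg, epiregulin, 24.2 and 26.6 against 0.493 and 0.142 RPKM (4.34 ± 0.26, adjusted p = 8.48e-05). Erbb3, a receptor for neuregulins, was lower in basal cells, with 0.731 and 0.790 against 3.94 and 4.75 RPKM (-1.60 ± 0.22, adjusted p = 0.00205), and all 3 calls held in all settings. Areg, amphiregulin, was not called, and had 290.2 and 118 against 295 and 195 RPKM, beside 1940.2 and 1414 RPKM in mature luminal cells.

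Of the IGF system, 7 of 12 tested members were higher and none lower, with 3 holding in all settings and 4 called without luminal progenitor replicate 2. Besides Igfbp3 the higher ones included Igfbp2, with 29.1 and 9.34 against 0.147 and 0.190 RPKM (3.92 ± 0.45, adjusted p = 0.000963). They also included the receptor Igf1r, with 32.6 and 42.9 against 9.71 and 7.02 RPKM (2.05 ± 0.24, adjusted p = 0.00115). Igfbp5 was high in both populations, with 879.96 and 531 against 721 and 306 RPKM, and was not called. In the FGF system 8 of 12 tested members were higher and none lower, but 1 held in all settings and 2 were called in the fit to the 4 libraries alone. Fgfr1 had 159 and 216 against 85.7 and 78.5 RPKM (1.17 ± 0.23, adjusted p = 0.00848), a call lost in that fit and without luminal progenitor replicate 2, and Fgf2, Fgf7 and Fgf10 were listed at 0 in all 4 libraries.

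The TGF-beta, BMP and activin system was higher in 17 of 26 tested members and lower in none (median 1.79), and 14 held in all settings. The secreted antagonists stood out with Fst: Fstl1 had 86.2 and 99.8 against 2.05 and 1.61 RPKM (5.05 ± 0.43, adjusted p = 0.000296), and Nog, noggin, had 3.53 and 1.82 RPKM in basal libraries and was listed at 0 in both luminal progenitor libraries. Ltbp4, which tethers latent TGF-beta to the matrix, had 66.2 and 77.7 against 0.612 and 0.700 RPKM (5.46 ± 0.22, adjusted p = 3.54e-05), and Ltbp2 had 62.1 and 63.0 against 2.67 and 1.20 RPKM (4.48 ± 0.28). Among the ligands, Bmp7 had 11.7 and 12.4 against 0.174 and 0.120 RPKM (3.51 ± 0.21, adjusted p = 8.48e-05). Among the receptors, Tgfbr3, betaglycan, had 32.4 and 57.3 against 2.91 and 3.94 RPKM (3.33 ± 0.31) and Tgfbr1 50.2 and 62.3 against 22.2 and 16.1 RPKM (1.52 ± 0.25).

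Of 15 tested neurotrophin and neural crest genes 7 were higher and 3 lower, and 5 and 2 of these held in all settings. The lower ones included L1cam, an adhesion protein of axons, with 0.323 and 0 against 1.48 and 2.67 RPKM (-1.39 ± 0.24, adjusted p = 0.00514). The guidance ligand Ntn1, netrin, was lower, with 0.433 and 2.82 against 17.7 and 26.2 RPKM (-3.27 ± 0.45, adjusted p = 0.00201). Several receptors were higher. Ngfr, the p75 neurotrophin receptor, had 5.88 and 3.81 RPKM and Ntrk3, the receptor for neurotrophin 3, 6.09 and 7.82 RPKM in basal libraries, and both were listed at 0 in both luminal progenitor libraries. Unc5b, a netrin receptor, had 13.4 and 7.57 against 1.60 and 1.16 RPKM (2.23 ± 0.30, adjusted p = 0.00199). Gfra1 and Gfra2, co-receptors of the GDNF family, had 13.6 and 10.5 against 0 and 0.0675 RPKM (3.65 ± 0.22) and 13.5 and 10.6 against 0.210 and 0.118 RPKM (3.48 ± 0.23), and their partner Ret had 10.3 and 31.9 against 2.91 and 0.295 RPKM (3.10 ± 0.62, adjusted p = 0.00872). Bdnf went with the receptors, with 11.9 and 9.01 against 0.868 and 0.218 RPKM (2.92 ± 0.28, adjusted p = 0.000508). The calls of Ntn1, Ngfr, Ntrk3, Unc5b, Gfra1, Gfra2 and Bdnf held in all settings, and that of Ret was lost in the fit to the 4 libraries alone and without luminal progenitor replicate 2. Of the whole axon guidance list, 17 of 28 tested members were higher and 2 lower, and 7 and 2 of these held in all settings. The higher count was 10 without luminal progenitor replicate 2 and 7 in the fit to the 4 libraries alone. Slit2 had 5.72 and 6.13 against 0 and 0.124 RPKM (2.71 ± 0.18, adjusted p = 0.000122), and Efna1, an ephrin, was lower, with 62.0 and 67.1 against 163 and 145 RPKM (-1.24 ± 0.17, adjusted p = 0.00193).

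**Figure D3:**
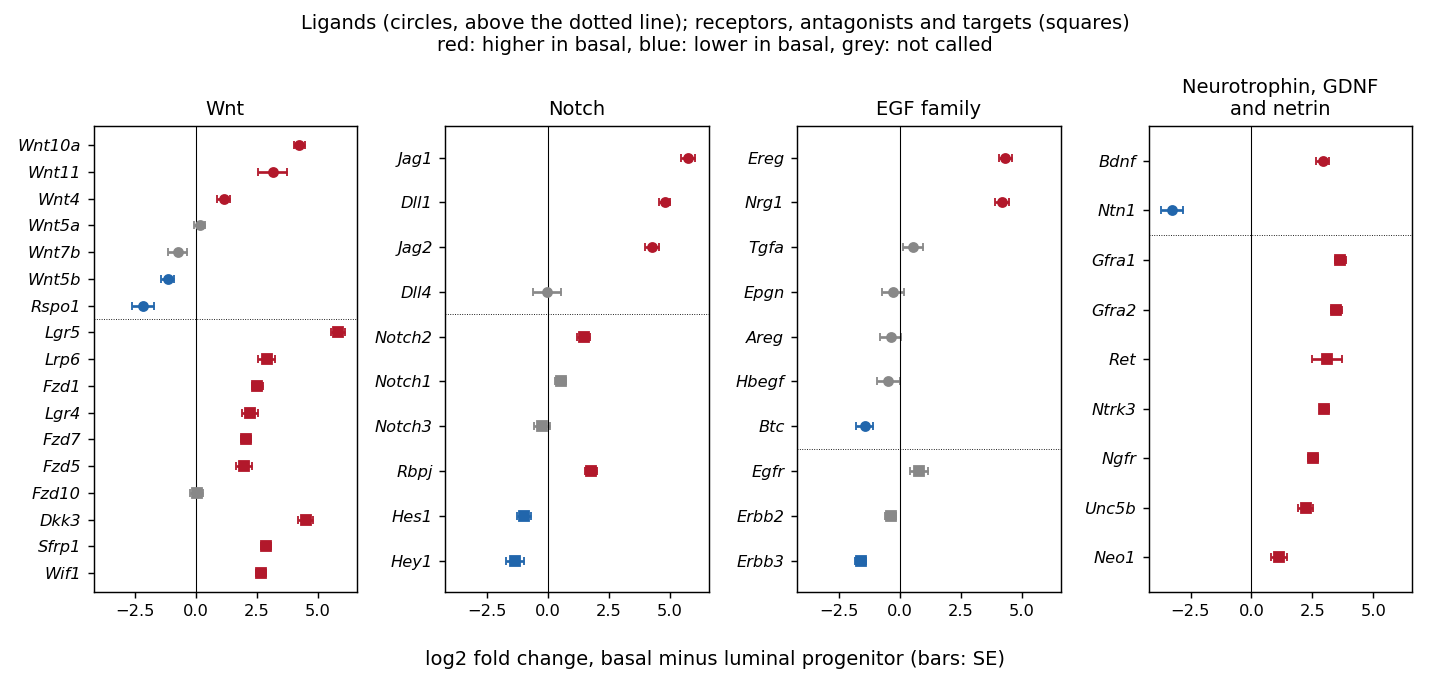
Log2 fold change (basal minus luminal progenitor, x axis; bars are SE) of ligands, drawn as circles above the dotted line, and of receptors, antagonists and targets, drawn as squares, in 4 signalling systems. Ntn1, Erbb3, Hes1 and Hey1 lie left of 0, and the receptors for Wnt, neurotrophins and netrin that were called lie right of 0.

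Tight junctions gave the reverse of the basement membrane: of 21 tested members 12 were lower in basal cells and none higher (median -1.45), with 5 holding in all settings and 12 called after removal of the length trend. Cldn1, a claudin, had 18.6 and 67.5 against 822 and 869 RPKM (-4.53 ± 0.59, adjusted p = 0.00169), and mature luminal cells also had little of it (4.49 and 11.7 RPKM). Ocln, occludin, had 38.0 and 17.5 against 399 and 238 RPKM (-3.53 ± 0.37, adjusted p = 0.000726), Cgn, cingulin, 7.25 and 2.86 against 28.2 and 33.5 RPKM (-2.49 ± 0.35), and Crb3, a protein of the apical polarity complex, 3.94 and 4.16 against 16.3 and 20.2 RPKM (-1.92 ± 0.21). Cldn4 had 281 and 94.3 against 1238 and 1580.04 RPKM (-3.09 ± 0.48, adjusted p = 0.0031), a call lost in the fit to the 4 libraries alone.

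Adhesion genes followed the layers in part. Epcam, a marker used to sort luminal cells, had 883 and 595 against 3803 and 5227 RPKM (-2.62 ± 0.27, adjusted p = 0.000676), and Cdh3, P-cadherin of myoepithelial cells, had 11.3 and 10.4 against 0.163 and 0.114 RPKM (3.38 ± 0.21, adjusted p = 0.000102). Cdh1, E-cadherin, was not called, with 152 and 232 against 213 and 218 RPKM. Vcam1 had 13.9 and 55.7 against 0.446 and 0.830 RPKM (4.16 ± 0.58, adjusted p = 0.00213). Of 18 tested members of this list, 9 were higher and 4 lower, and 6 and 2 held in all settings.

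Milk and secretion genes were lower in basal cells in 15 of 16 tested members and higher in none (median -3.06), and 9 held in all settings. The list summed to 224.3 and 152.2 RPKM in basal libraries, against 3835 and 4143 RPKM in luminal progenitor libraries, most of it from kappa-casein. The caseins Csn1s1 and Csn1s2a were listed at 0 in both basal libraries, beside 24.2 and 50.4 RPKM and 15.7 and 12.1 RPKM in luminal progenitor libraries. Csn2, beta-casein, was also listed at 0 in basal libraries, and its luminal progenitor values of 7.02 and 58.4 RPKM lay far apart; it was not called in the fit to the 4 libraries alone. Btn1a1, butyrophilin of the milk fat globule, had 1.36 and 1.78 against 47.0 and 21.3 RPKM (-3.68 ± 0.36, adjusted p = 0.000508), and Plin2, which coats lipid droplets, had 11.1 and 8.76 against 93.7 and 62.6 RPKM (-2.84 ± 0.26, adjusted p = 0.000437). Mfge8, a membrane protein of milk fat globules, had 37.4 and 34.0 against 277 and 230.04 RPKM (-2.79 ± 0.17, adjusted p = 9.41e-05), and Muc1, an apical mucin, 2.34 and 1.89 against 35.5 and 31.2 RPKM (-3.46 ± 0.25, adjusted p = 0.000164). Wap, whey acidic protein, was listed at 0 in all 4 libraries.

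Prolactin acts on casein genes through STAT5, which binds the letters TTCNNNGAA. They were searched in the RefSeq promoter windows (GRCm38.p6, both strands, on which the motif reads the same). Of the 15 windows of the 14 milk genes matched by symbol 5 held them, those of Csn1s1, Csn2, Csn1s2a, Pigr and Glycam1. Of all 32851 promoters, 2726 held them (8.3%). The stretches of the 2 genes that were lower in basal cells and hold the letters upstream of their start are shown, with TTCNNNGAA in capitals. It begins 100 bases before the start of Csn1s1 (chr5:87666068-87666156, plus strand) and 93 bases before the start of Csn2 (chr5:87699470-87699558, minus strand).
Csn1s1: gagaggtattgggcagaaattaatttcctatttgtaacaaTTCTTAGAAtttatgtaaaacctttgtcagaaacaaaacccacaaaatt
Csn2: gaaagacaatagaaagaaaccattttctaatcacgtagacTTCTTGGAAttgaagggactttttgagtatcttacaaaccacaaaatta
Stat5a itself was not called, with 27.9 and 13.9 against 13.995 and 11.4 RPKM. Stat5b had 6.25 and 4.57 against 8.87 and 9.31 RPKM and was not called either (adjusted p = 0.0523).

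Innate defence genes were mostly lower in basal cells, with 13 of 24 tested members lower and 2 higher, of which 5 and 2 held in all settings, and 7 were lower without luminal progenitor replicate 1. Lcn2, lipocalin, which withholds iron from bacteria, had 1262 and 1030.4 RPKM in basal against 11786 and 22699 RPKM in luminal progenitor libraries (-3.84 ± 0.37, adjusted p = 0.00049). Ltf, lactoferrin, had 4.72 and 5.02 against 47.0 and 43.2 RPKM (-2.97 ± 0.23, adjusted p = 0.000193), and Cd14, the co-receptor for bacterial lipopolysaccharide, 14.3 and 9.74 against 299 and 307 RPKM (-4.57 ± 0.23, adjusted p = 5.29e-05). The exceptions were Slpi, a secreted protease inhibitor, with 396 and 392 against 55.7 and 102 RPKM (2.37 ± 0.34, adjusted p = 0.00243), and Tlr2, a receptor for bacterial lipoproteins, with 49.2 and 30.4 against 12.0 and 10.6 RPKM (1.69 ± 0.28, adjusted p = 0.00419).

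Cytokines were shared out between the populations: of 32 tested chemokines, interleukins and receptors, 13 were higher in basal cells and 7 lower, and 7 and 2 held in all settings, with 2 lower when luminal progenitor replicate 1 was left out. Csf3, the granulocyte growth factor, was lower, with 20.02 and 16.1 against 366 and 275 RPKM (-4.07 ± 0.22, adjusted p = 5.78e-05), and Il1rn, the antagonist of interleukin 1, was lower, with 2.28 and 5.97 against 45.1 and 30.5 RPKM (-2.99 ± 0.41, adjusted p = 0.00198). Csf1, the macrophage growth factor, was higher, with 51.8 and 43.1 against 8.74 and 6.84 RPKM (2.46 ± 0.23, adjusted p = 0.00047). Cxcl12, a chemokine that guides leukocytes, had 146 and 114 against 3.84 and 3.69 RPKM (4.78 ± 0.21, adjusted p = 4.23e-05), and Il11 19.3 and 28.9 against 0.0612 and 0.0600 RPKM (4.54 ± 0.23, adjusted p = 5.34e-05). Il17b had 38.4 and 14.7 RPKM and Tnfrsf11b, osteoprotegerin, which traps the RANK ligand, 19.3 and 19.0 RPKM in basal libraries, and both were listed at 0 in both luminal progenitor libraries. Tnfrsf11a, RANK itself, had 9.25 and 13.6 against 3.98 and 3.81 RPKM (1.32 ± 0.26, adjusted p = 0.00822), a call lost in the fit to the 4 libraries alone.

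Metabolic lists were mixed, and their counts stand beside 21% higher and 14.5% lower of all genes tested. Of 26 tested glutathione and detoxification genes 11 were lower and 2 higher, with 3 and 2 holding. Of these genes 5 were lower without luminal progenitor replicate 1, 6 were lower without luminal progenitor replicate 2, and 6 were higher without basal replicate 2. Mgst1, a membrane glutathione transferase, had 222 and 151 against 1191 and 831 RPKM (-2.43 ± 0.25, adjusted p = 0.000689), and Gclc, which makes the precursor of glutathione, ran the other way with 252 and 313 against 53.9 and 50.7 RPKM (2.40 ± 0.24, adjusted p = 0.000587). Of 26 tested lipid synthesis genes 5 were higher and 6 lower, with 1 of each holding. The higher count was 8 without basal replicate 1 and 2 without luminal progenitor replicate 1, and the lower count was 3 without luminal progenitor replicate 2. Scd1, which makes monounsaturated fatty acids, had 21.4 and 40.4 against 234 and 340.1 RPKM (-3.22 ± 0.33, adjusted p = 0.000642), and Fabp3, a fatty acid carrier, had 13.3 and 5.51 against 0 and 0.183 RPKM (3.15 ± 0.37, adjusted p = 0.0011). Of 11 tested retinoid genes 2 were higher and 3 lower, with 2 and 1 holding and 5 higher without basal replicate 1, among the lower ones the retinal dehydrogenase Aldh1a3, with 3.37 and 6.61 against 712 and 918 RPKM. Of 15 tested S100 and annexin genes, which code for calcium-binding proteins, 9 were lower and none higher (median -1.27), with 6 holding. Anxa2 had 550.1 and 592 against 2346 and 2969 RPKM (-2.21 ± 0.21, adjusted p = 0.000506).

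Levels in the other normal populations differed by gene. These 3 genes high in basal cells were low in mature luminal libraries, with 0.185 and 0.201 RPKM of Oxtr, 0.551 and 0.946 RPKM of Col4a1 and 0.192 and 0 RPKM of Snai2. The fMaSC libraries had 9.87 and 11.1 RPKM of Oxtr, 59.8 and 59.8 RPKM of Col4a1 and 79.8 and 73.9 RPKM of Snai2. Of the luminal progenitor genes, Cldn1 had 22.3 and 24.1 RPKM, Lcn2 3159.7 and 2945 RPKM and Car2 7.59 and 5.90 RPKM in fMaSC libraries. These are levels without a test.

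Counts in several further lists varied with the libraries kept, and they stand beside 21% higher and 14.5% lower of all genes tested. Of 21 tested hormone-sensing genes 4 were higher and 2 lower (median 0.02), and none held in all settings, with 8 lower without basal replicate 1 and 0 higher without luminal progenitor replicate 2. Esr1, the oestrogen receptor, had 5.46 and 3.42 against 5.22 and 2.93 RPKM and Pgr, the progesterone receptor, 57.0 and 57.0 against 46.2 and 28.9 RPKM, and neither was called. Among 19 MHC and antigen processing genes 1 was higher and 2 lower, and among 19 interferon-induced genes none was higher and 3 were lower, with 1 lower gene of each list holding in all settings. Without basal replicate 1, 11 of the MHC list were lower (median -1.04) and 10 of the interferon list (median -0.93), and without basal replicate 2, 4 of the MHC list were higher. The MHC class II gene H2-Aa was uneven in basal libraries, with 38.2 and 9.87 RPKM, against 4.75 and 6.43 RPKM in luminal progenitor libraries, and was not called. Of 22 cell cycle genes 3 were higher and 1 lower, and 4 were lower without basal replicate 2. No call of this list held in all settings. Mki67, a marker of proliferating cells, had 2.71 and 2.99 against 0.747 and 0.559 RPKM (1.22 ± 0.21, adjusted p = 0.0048), a call lost in the fit to the 4 libraries alone and after removal of the length trend. Of 19 tested cell cycle inhibitors and cyclins 6 were higher and 2 lower, with 3 and 0 holding and 7 lower without basal replicate 1. Among the D-type cyclins Ccnd2 was higher with 22.1 and 31.8 against 0.176 and 0.496 RPKM (4.38 ± 0.25, adjusted p = 7.71e-05), holding in all settings, and Ccnd1 was lower with 15.04 and 32.8 against 48.6 and 45.7 RPKM (-1.05 ± 0.34, adjusted p = 0.0494), a call lost in 9 of the 15 settings. Immediate early genes, which respond to tissue handling, were higher in 5 and lower in 7 of 23 tested members, and 3 and 0 of these held in all settings. The lower count was 12 without basal replicate 1, 4 without basal replicate 2, 1 without luminal progenitor replicate 1 and 0 in the fit to the 4 libraries alone. The lower ones included Fos, with 559.5 and 256 against 2123 and 1043 RPKM (-1.97 ± 0.44, adjusted p = 0.0127), a call lost in the fit to the 4 libraries alone and without luminal progenitor replicate 1.

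**Figure D4:**
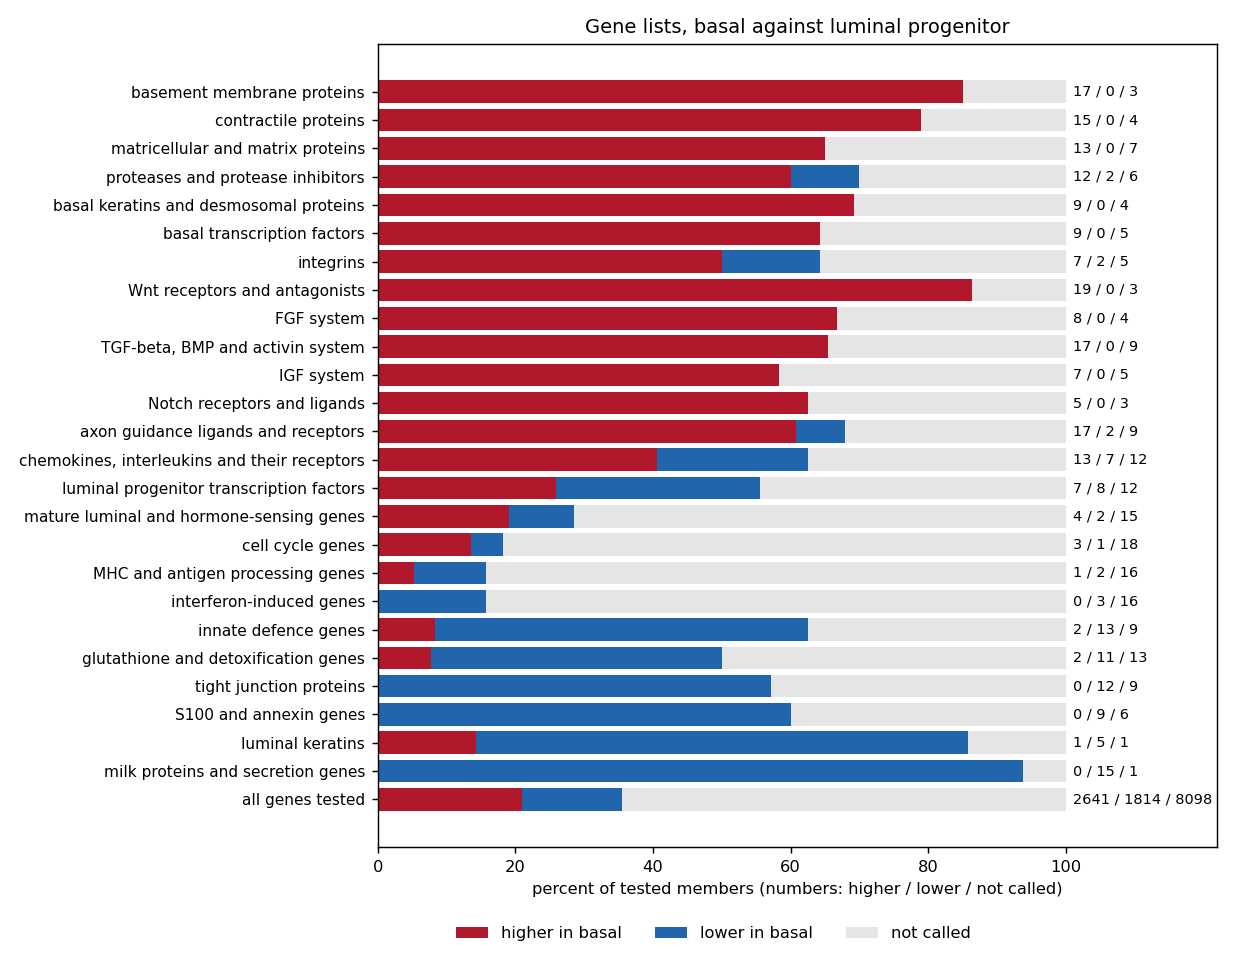
Percent of the tested members of each list that were higher (red), lower (blue) or not called (grey) in basal cells against luminal progenitors, with the 3 counts beside each bar and all 12553 genes in the bottom row. Basement membrane, contractile and Wnt receptor genes are mostly red, milk genes, luminal keratins and S100 and annexin genes mostly blue.

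Markers of other cell types were uneven between libraries. The 18 immune markers summed to 80.36 and 15.49 RPKM in basal libraries, against 59.67 and 63.77 RPKM in luminal progenitor libraries. Ptprc, the pan-leukocyte marker, was under 0.4 RPKM in all 4 libraries and Cd3e at 0. Most of the luminal progenitor sum was Cd68, with 13.9 and 12.4 against 57.1 and 60.2 RPKM, and Lyz2, a myeloid lysozyme, had 57.0 and 0.702 RPKM in basal libraries, against 0.750 and 1.36 RPKM in luminal progenitor libraries. The 14 endothelial and pericyte markers summed to 29.75 and 71.19 RPKM in basal, against 15.49 and 23.83 RPKM in luminal progenitor libraries. The 16 fibroblast and fat cell markers summed to 58.19 and 67.1 RPKM in basal, against 18.4 and 28.31 RPKM in luminal progenitor libraries. Of these Dcn, decorin, had 49.7 and 50.0 against 8.70 and 11.1 RPKM (2.23 ± 0.62, adjusted p = 0.0285), a call lost when any 1 of the 4 libraries was left out. The 13 red cell, pigment cell and Schwann cell markers summed to 170.1 and 260.5 RPKM in basal, against 162.7 and 163.7 RPKM in luminal progenitor libraries. Most of it was Pmp22, a myelin gene that other cells also express, with 151 and 243 against 138 and 141 RPKM, while Hba-a1 and Tyrp1 were listed at 0 in all 4 libraries. The endothelial and fibroblast sums were higher in basal than in luminal progenitor libraries, as were many matrix genes. Most of the fibroblast sum in basal libraries was Dcn. Of 13 tested members of that list, 1 was higher and 1 lower, and the median fold change was 0.0. Matrix sums parted between basal replicates 1 and 2, with 3867 and 3152 RPKM of the matricellular and matrix list. The basement membrane list had 1250 and 1551 RPKM there, and the proteases and inhibitors 1390 and 1581 RPKM. The part of other cell types in the matrix result was not tested. In sorted bulk libraries, fewer cells of a type and less RNA per cell cannot be told apart.

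Fold changes varied with transcript length. Among 12093 genes with an annotated length, split by length into 5 groups of like size, the median fold change between basal cells and luminal progenitors was -0.19, -0.23, 0.03, 0.23 and 0.55 from the shortest to the longest group, whose median lengths were 1241, 2330, 3297, 4428 and 6764 bases. The difference between basal replicates 2 and 1 varied the same way, from -0.33 in the shortest to 0.13 in the longest group, and that between luminal progenitor replicates 2 and 1 stayed between -0.12 and -0.04. That between mature luminal replicates 2 and 1 varied too, with -0.07 in the shortest, -0.16 in the next and 0.13 in the longest group. After a smooth length trend was removed from each library, 2066 genes were higher and 2044 lower, 50.3% against 49.7% of the called genes, and 1857 and 1531 of these were called in the same direction before. In that fit 15 contractile and 15 basement membrane genes were higher and 12 tight junction genes lower. The basement membrane median was 1.85, against 2.63 before. Some other lists lost calls. Of the axon guidance list 11 members were higher, against 17 before, and of the Wnt receptors and antagonists 15, against 19. The cause of the length dependence was not tested.

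**Figure D5:**
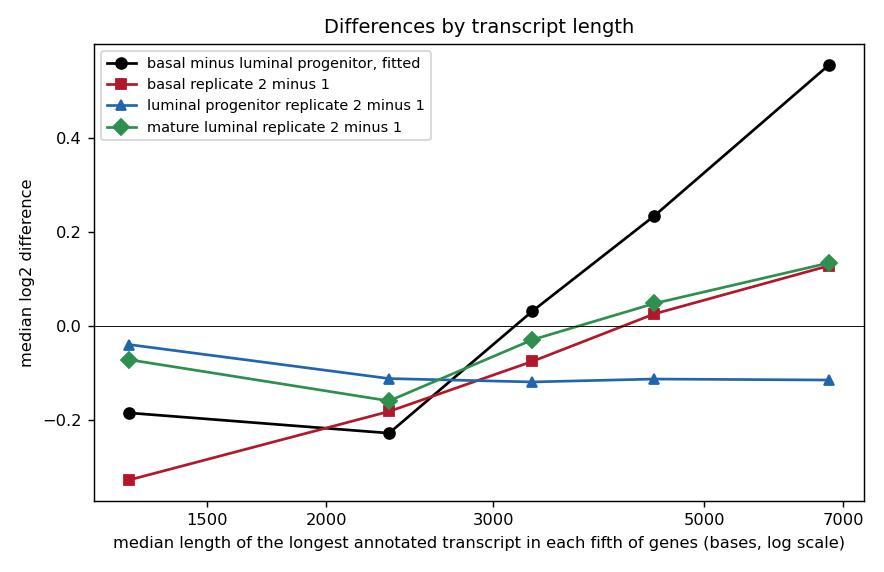
Median log2 difference (y axis) in each of 5 groups of 12093 genes by transcript length (x axis, bases, log scale) for basal minus luminal progenitor, and for replicate 2 minus replicate 1 within each of the 3 adult populations. The population difference climbs to 0.55 in the longest group, the basal and mature luminal replicate differences reach 0.13 there, and the luminal progenitor replicate difference stays below 0.

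The same lists were read in tumours. In the PY230 table, which shares no library with the normal cells, 1814 of 13136 tested genes were higher (13.8%) and 3699 lower (28.2%) in basal SOX10 high than in luminal SOX10 high cells, and the median of all genes was -0.21. Of the called genes 32.9% were higher, against 46.2% after quantile normalization (2383 higher, 2780 lower), and the count of lower genes was 2094 without basal SOX10 high replicate 1 and 2345 without replicate 2. Of the contractile list 18 of 19 tested members were higher and none lower (median 2.48), and of the basement membrane list 16 of 19 were higher and 1 lower. Tight junction genes were lower in 18 of 19 (median -2.45) and milk genes in 10 of 13, with 1 higher. Acta2 had 1904 and 1670.01 RPKM in basal SOX10 high libraries, against 46.5 and 56.7 RPKM in luminal SOX10 high libraries (5.09 ± 0.28, adjusted p = 9.38e-05), and Trp63 had 42.9 and 55.4 against 1.54 and 2.28 RPKM (4.11 ± 0.20, adjusted p = 7.86e-05). Ocln had 0.983 and 1.10 against 17.2 and 16.004 RPKM (-3.11 ± 0.14, adjusted p = 7.71e-05). Other lists had different counts in the tumour cells. Of 21 Wnt receptors and antagonists tested there 9 were higher and 1 lower (median 0.59), and Lrp6 was not called, with 16.6 and 15.1 against 18.1 and 15.7 RPKM (adjusted p = 0.64). Among 19 hormone-sensing genes, 17 fell and 1 rose (median -1.87), and of 22 cell cycle genes 18 were lower and none higher. Mfge8 was higher in basal SOX10 high cells, with 800.00 and 575 against 135 and 149 RPKM (2.25 ± 0.22, adjusted p = 0.000448), while in the normal gland it was lower in basal cells (-2.79 ± 0.17). Runx1 was not called in the tumour cells, with 13.7 and 10.96 against 8.01 and 14.2 RPKM (adjusted p = 0.599). Differences between the normal and the tumour comparison were not tested, and levels are not compared across the tables.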

How the data were processed

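Per the labels' protocols, about 2000 sorted cells per library were processed with SmartSeq2 and Nextera XT (18 and 10 PCR cycles) and read from one end (50 or 75 bp, not told per library). The protocol marks neither strand nor molecules, so overlapping genes cannot be told apart by strand and PCR copies count as reads. The deposited values are RPKM per gene, 1 table each for the normal and the PY230 cells, which the authors made separately. The submitters' processing notes name FastQC, HISAT2 2.0.5, StringTie 1.3.1c and the build mm9; the gene annotation and read totals were not stated in the sources used here. Every column of both tables was matched to a sample.

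In each table, genes reaching 1 RPKM in 2 or more libraries entered limma 3.58.1 (R 4.3.3) as log2(RPKM + 1) (two-sided, intensity trend, 1 mean per group, all 8 normal or all 6 PY230 libraries), with Benjamini-Hochberg adjustment over all genes and a threshold of 0.05. The pseudocount shrinks the fold changes of low genes. The comparison, the gene lists and the tests were chosen with earlier results of these data known. Genes were named from the 15 largest rises and 15 largest falls whose groups do not overlap and from the members of the lists; which list members are described was chosen with their values seen. On simulated data of 12553 genes, 9% of 1-log2 and 72% of 2-log2 changes between basal cells and luminal progenitors were recovered. Of the calls 4.71% were false. In the PY230 table the shares were 44%, 87% and 7.75%. The simulation gave each gene the same spread in every group and changed few genes. The real basal libraries differed from each other more than those of the other normal groups. The simulated share of false calls therefore does not measure that of the real comparison. Transcript lengths are those of the longest transcript in GENCODE vM21, and promoters come from RefSeq (GRCm38.p6), used for sequence and not with coordinates of the files. Same-numbered basal and luminal progenitor libraries deviated together only weakly (r = 0.11 across genes, 2 pairs). For the other normal groups r lay between 0.000386 and 0.221. In PY230 cells it was 0.295 for basal with luminal SOX10 high libraries, and -0.201 and -0.265 for these with luminal SOX10 low libraries. The labels do not say that the numbers mark a shared origin, so the numbers were not taken as pairs. Results for 3 list members are not reported here.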

Additional observations from a re-analysis of the deposited data

How the results depend on the processing

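No gene called in the fit of all 8 libraries was called in the opposite direction by any of the 15 alternatives. Among fits that kept every basal and luminal progenitor library, the following moved both counts by over 1.5 times from 2641 and 1814. The fit to the 4 basal and luminal progenitor libraries alone gave 915 higher and 458 lower genes. A spread estimated for each group gave 1481 and 906. Some fits that left out 1 library moved a count by over 1.5 times too. Leaving out 1 basal or luminal progenitor library gave between 1500 (without luminal progenitor replicate 2) and 3335 higher genes (without basal replicate 1) and between 878 (without luminal progenitor replicate 1) and 2839 lower genes (without basal replicate 1); a lone library is then assumed to vary like the other groups. Quantile normalization moved the median of all genes to -0.03 and median-of-ratios factors to 0, against 0.08. Single genes shifted by more, such as Gata3 from 0.025 to -0.17 after quantile normalization. Genes near 0 therefore have no direction that is free of the scaling. The fit with replicate numbers as a replicate block gave 2671 higher and 1887 lower genes, and a pseudocount of 0.1 gave 2524 and 1744. In PY230 cells, leaving out 1 library gave between 1357 and 1694 higher and between 2094 and 3879 lower genes, beside 1814 and 3699. Some fold changes that were not called changed sign. After quantile normalization Esr1 was -0.023, Gata3 -0.17, Vcl -0.089 and, in PY230 cells, Lrp6 0.12. With median-of-ratios factors Gata3 was -0.10 and Vcl -0.016. After removal of the length trend Esr1 was -0.39, Gata3 -0.015, Lama5 -0.49, Prlr -0.28 and Vcl -0.28. Leaving out 1 library gave fold changes between -1.01 and 0.27 for Areg, -0.51 and 0.11 for Cdh1, -0.22 and 0.44 for Esr1, -0.11 and 0.16 for Gata3, -0.077 and 1.16 for Igfbp5, and -0.25 and 4.84 for Lyz2. They lay between -1.55 and 0.35 for Pdlim3, -0.025 and 0.30 for Tpm1, and in PY230 cells between -0.18 and 0.011 for Lrp6 and between -0.20 and 0.56 for Runx1. The causes were not tested. The fits with a spread for each group and with the length trend removed were chosen after seeing the data.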
